A study of Mus musculus with 4 samples.

Results

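The genes described here encode potassium channel subunits and the proteins that assemble with them, compared between nucleus accumbens and dorsal striatum of old mice. They were chosen by name and by count: every gene row whose symbol starts with Kcn was taken, 3 rows named in the choice were left aside, and a row was kept when its counts summed to at least 10 over the 4 libraries. This gave 81 genes of 32531 in the files, in 19 subfamilies by the letter that follows Kcn. Of the 98 Kcn rows, 14 further rows lay under the minimum, 6 of them with 0 counts in every library. Just outside it stood Kcnk18 with 8 counts in all and Kcnn4 with 7, and just inside it Kcnj14 with 12 and Kcnmb4os1 with 16. The summed count is the measured value that the choice used.

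Both regions came from mice older than 20 months of the line Drd1-TRAP CP73, in which the promoter of Drd1 drives EGFP fused to the ribosomal protein Rpl10a. Each region had 2 libraries, and both groups carry the transgene. The libraries are labelled as input and hold total RNA, so they report on every cell type in the dissected tissue and not on Drd1 neurons alone. In such bulk samples, fewer cells of a type and less RNA per cell cannot be told apart. The labels do not state whether the 2 libraries of a region are from different mice. The p-values therefore reflect the spread among these 4 samples, part or all of which may be technical.

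Potassium channels let potassium ions leave or enter a cell and so set its resting voltage, its firing threshold and the shape and spacing of its spikes. Spiny projection neurons, the main cells of both regions, are known for a very negative resting voltage held by inward rectifiers of the Kir2 type (Kcnj2, Kcnj4), for A-type currents carried by Kv4 channels (Kcnd) with their KChIP partners (Kcnip), and for slowly inactivating Kv1 currents (Kcna) that delay the first spike. G protein-gated inward rectifiers (GIRK: Kcnj3, Kcnj5, Kcnj6, Kcnj9) couple receptors to hyperpolarisation, Kv7 channels (Kcnq) carry the M-current, and K2P channels (Kcnk) carry leak currents.

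Counts assigned to genes were 8478403 to 11849134 per library, of which the 81 genes took 38710 to 56927 counts, or 0.457% to 0.496%. Levels below are CPM, counts scaled to the size of each library by TMM, and 3 counts correspond to 0.239 to 0.375 CPM. Where 2 pairs of values are set against each other, the dorsal striatum pair stands first and replicate 1 leads each pair. Markers of spiny projection neurons were present in every library, with a summed level over 9 genes of 5917 and 6005 CPM in dorsal striatum and 5300 and 4280 CPM in accumbens, and 1 of the 9, Rgs9, passed the threshold, with a lower level in accumbens (1590 and 1314 against 659 and 663 CPM). Over 8 genes of cortical glutamatergic neurons the sums were 236 and 262 against 371 and 225 CPM, but in dorsal striatum most of the sum came from Nrgn (160 and 255 against 91.3 and 91.4 CPM). It was the 1 of 7 tested genes past the threshold, and it was lower in accumbens. Without Nrgn they were 76.9 and 7.81 against 279.96 and 134 CPM, and 5 of the 7 tested genes had a higher level in accumbens, with a median log2 fold change over the 7 of 2.10. Among them Slc17a7, the vesicular glutamate transporter gene, differed widely between libraries of 1 region (32.3 and 0.717 CPM in dorsal striatum, 198 and 79.4 CPM in accumbens), and Neurod6 was at 0 in dorsal striatum replicate 2. The part of these cells in the results was not tested. Of the other lists, 1 of 6 markers of other interneurons passed the threshold, and this was Sst, higher in accumbens (53.5 and 58.4 against 193 and 143 CPM, log2 fold change 1.59, edgeR adjusted p = 0.0233). Npy, of the same list, was at 7.04 and 7.01 against 23.04 and 18.9 CPM (1.58, edgeR adjusted p = 0.0552). The list was split, with 3 of 6 higher in accumbens and a median log2 fold change of 0.14. Chat (−0.24), Slc5a7 (−0.13) and Gad1 (−0.05) were lower in value. The part of interneurons in the higher channel genes was not tested. The count past the threshold was 0 of 4 for thalamic or pallidal neurons, 0 of 7 for oligodendrocytes, 0 of 4 for their precursors and 0 of 5 for microglia. In value, 5 of 5 microglia markers were higher in accumbens (median log2 fold change 0.56), and 6 of 7 oligodendrocyte markers (0.22). The same held for 3 of 4 precursor markers (0.24) and 2 of 4 thalamic or pallidal ones (0.07). The part of these cells in the results was not tested either.

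Kcnh1 and Kcnc1 rose in accumbens, and no potassium channel gene fell by the same test. Of the 81 genes, 72 passed the low-count filter and were tested in the fit over all 14493 genes with the quasi-likelihood test of edgeR, at an adjusted p of 0.05. The 2 called genes are 2.78% of the tested members, where 1.28% of all tested genes were called (0.994% higher and 0.29% lower). An unadjusted p under 0.05 was reached by 16 members with higher and 5 with lower levels in accumbens, against 10.9% and 8.27% of all tested genes. The number called depended on single libraries. Without dorsal striatum replicate 1 it was 1, Kcnh1 (0.71% of all genes). Without dorsal striatum replicate 2 edgeR called 0 (1.09% of all genes), with 5 higher and 2 lower members at an unadjusted p under 0.05. Without accumbens replicate 1 it was 16 higher and 7 lower, where 10% and 8.13% of all genes were called, and without accumbens replicate 2 it was 22 higher and 5 lower, against 15.5% and 13.5%. In the last 2 cases the lone accumbens library is assumed to vary like the dorsal striatum pair. DESeq2 called 5 of 50 members higher and 2 lower, against 6.89% and 3.48% of all genes it tested. With library size alone 1 was called higher and 2 lower, against 0.497% and 1.19%, and with an offset for GC content 1 was called, against 0.89%.

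The members leaned towards higher levels in accumbens. Fold changes are given as log2 of the accumbens level over the dorsal striatum level. The median over the 72 tested members was 0.22, and 51 were above 0 (70.8%), beside a median of 0.02 and 51.4% above 0 over all tested genes. In 27 members (37.5%) both accumbens libraries lay above both dorsal striatum libraries, and in 10 (13.9%) both lay below, against 25.6% of all tested genes in each direction. Scaling by library size alone brought the members' median to 0.05 with 42 above 0, while the median of all genes moved from 0.02 to −0.15. A change of scaling shifts every gene by about the same amount. The distance between the medians of members and of all genes could therefore hardly change, and it is no check of the lean. The sign of small changes was not kept.

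**Figure D1:**
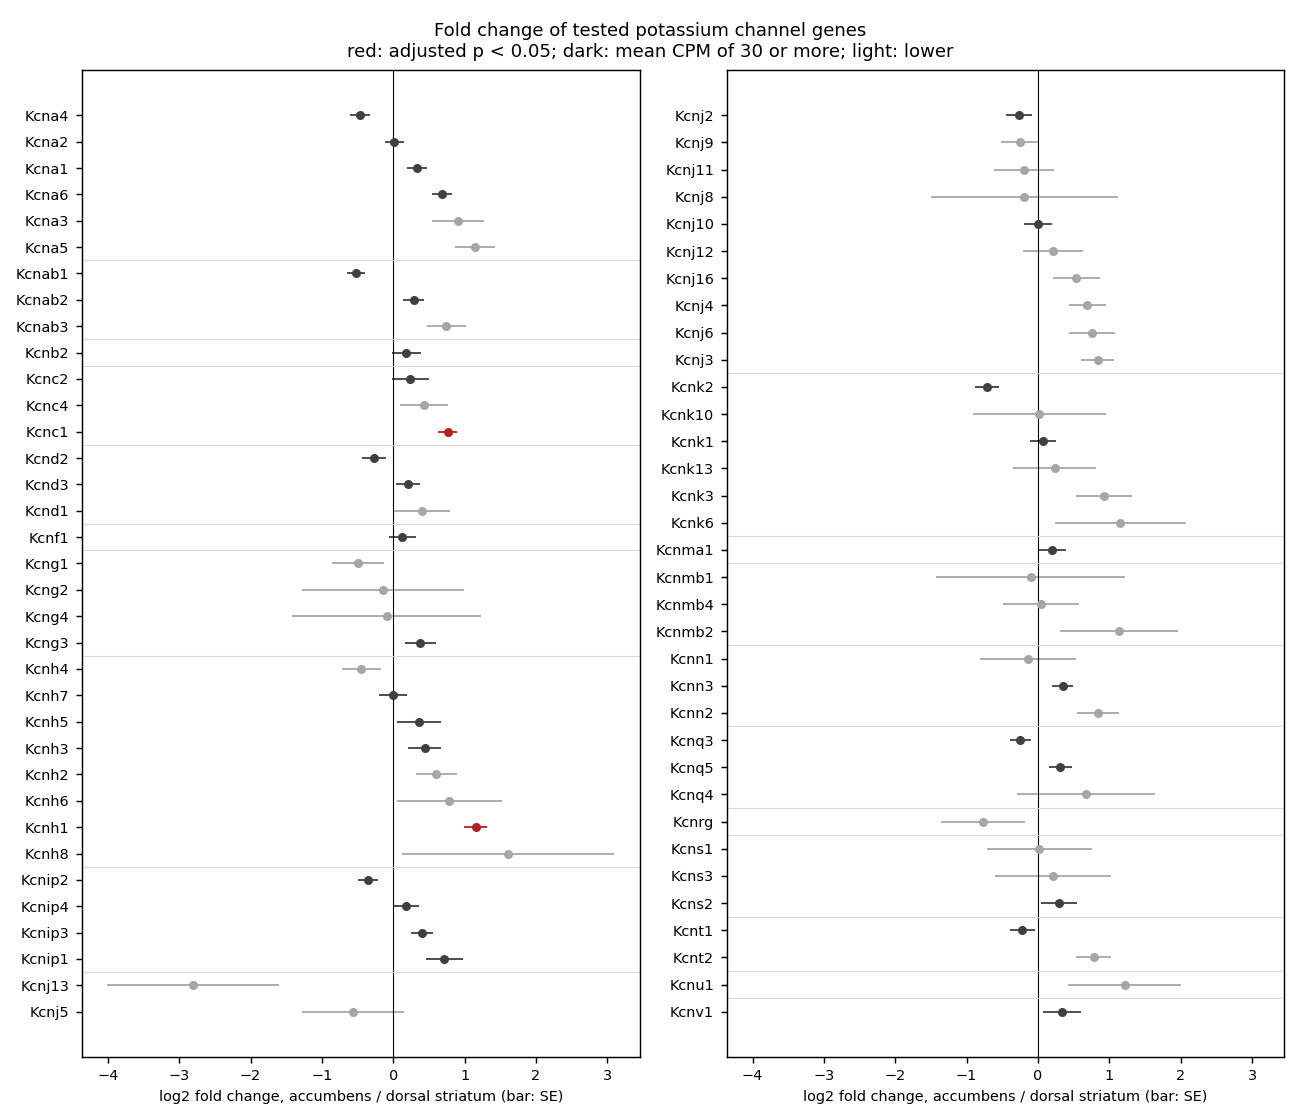
Log2 fold change (accumbens over dorsal striatum) of 69 of the 72 tested genes with its standard error (horizontal bar), ordered by gene name group and, within a group, by fold change. Kcnh1 at 1.15 and Kcnc1 at 0.77, in red, are the genes past the adjusted p threshold of 0.05, and the widest bars belong to genes of low level such as Kcnj13 and Kcnh8.

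**Figure D2:**
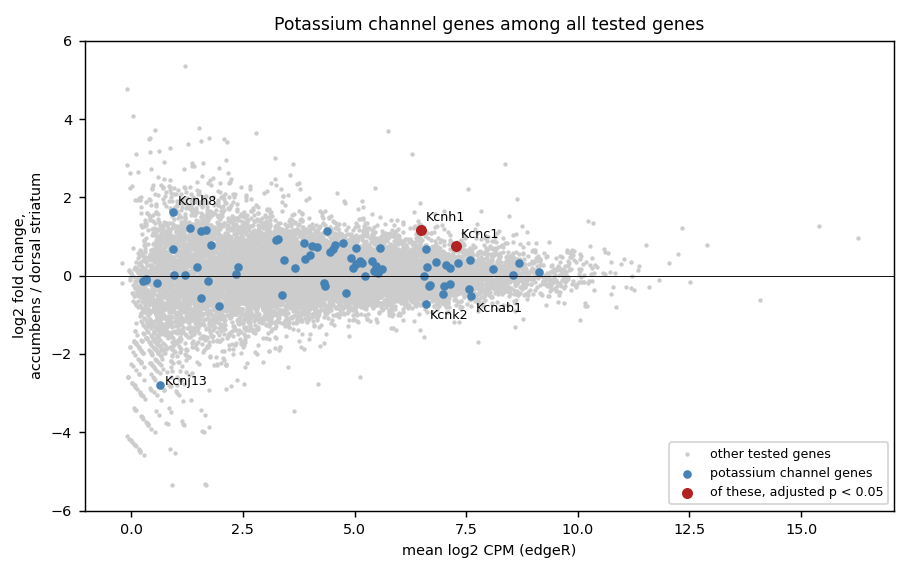
Log2 fold change (vertical axis) against mean log2 CPM (horizontal axis) for all 14493 tested genes in grey and the potassium channel genes in blue or, where past the threshold, red. The vertical axis stops at 6 in both directions, which leaves out 11 genes that are no members, and the 35 members at 30 CPM or more lie between Kcnk2 at −0.72 and Kcnh1 at 1.15.

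Fold changes spread wider, with larger errors, in members of low level. The 35 tested members with a mean of at least 30 CPM had fold changes between −0.72 and 1.15, with a standard error (SE) of at most 0.30. The 37 members below that level ran from −2.80 to 1.61, with an SE of up to 1.48. A further 9 members were too low to be tested and had at most 22 counts in any library. They were Kcnk4, Kcnk5, Kcnk12, Kcnj14, Kcne3, Kcne1l and the antisense rows Kcnd3os, Kcnmb4os1 and Kcnmb4os2, which are not channel genes. Among tested members of low level, Kcnh8 had 4 and 16 counts in dorsal striatum, 43 in accumbens replicate 1 and 0 in replicate 2. Kcne1l, the most abundant row of the Kcne group of small auxiliary subunits, had 4 and 9 counts in dorsal striatum against 1 and 22 in accumbens.

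The Kcnh genes encode the EAG, ERG and ELK channels, of which EAG channels carry a non-inactivating outward current opened by depolarisation. Kcnh1, the gene of EAG1, stood at 59.5 and 52.0 CPM in dorsal striatum and at 134 and 114 CPM in accumbens. Both accumbens libraries lay well above both dorsal striatum libraries, at a 2.22-fold higher level (log2 fold change 1.15, SE 0.17, edgeR adjusted p = 0.0278). Across the alternatives the fold change stayed between 0.98 and 1.26 and the adjusted p between 9.36e-07 and 0.0527, the highest being that without dorsal striatum replicate 2. The gene lies on chromosome 1 from 192190774 to 192510159 (GRCm38, plus strand), and no exon of another annotated gene overlaps its exons.

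The other Kcnh genes did not pass the threshold. Kcnh2, an ERG gene, was at 16.5 and 18 against 32.0 and 20.5 CPM, and Kcnh3, an ELK gene, at 29.0 and 22.1 against 36.8 and 32.4 CPM. Kcnh5, the gene of EAG2, was at 29.7 and 31.2 CPM in dorsal striatum and at 51.7 and 26.8 CPM in accumbens, where the libraries fell on either side of the dorsal striatum pair. Kcnh4, another ELK gene, had the sole negative value of the group at −0.45 (36.7 and 27.7 against 27.9 and 19.3 CPM). Kcnh7, an ERG gene, had the same mean of 37.3 CPM in both regions, and its fold change was −0.17 with library size alone. In the length-scaled sum of the 8 Kcnh genes, the share of Kcnh1 was 20.3% and 20.1% in dorsal striatum against 30.6% and 34.6% in accumbens, and that of Kcnh4 23.0% and 19.6% against 11.7% and 10.7%.

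The Kcnc genes encode Kv3 channels, which open at high voltage, close fast and are known for the brief spikes of fast-spiking interneurons. Kcnc1 was at 112 and 116 CPM in dorsal striatum and at 192 and 197 CPM in accumbens, so replicates lay close together and the regions far apart. The level was 1.70-fold higher in accumbens (log2 fold change 0.77, SE 0.13, edgeR adjusted p = 0.0431). This call was the less stable of the pair, with an adjusted p from 0.000105 to 0.217 over the alternatives. It was lost with library size alone (adjusted p 0.0597, log2 fold change 0.59) and with an offset for GC content (0.0832, 0.56). It was also lost without dorsal striatum replicate 1 (0.217) or 2 (0.128), where the log2 fold change was 0.72 and 0.79, close to the 0.77 with all libraries. The Kcnc1 transcript falls in decile 9 of GC content, where the median fold change over all tested genes was 0.21. Kcnc1 lies on chromosome 7 from 46396497 to 46438704 (GRCm38, plus strand), with no overlapping exon of another gene.

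Kcnc2 (49.6 and 32.5 against 40.3 and 56.4 CPM) and Kcnc4 (12.1 and 12.8 against 12.6 and 20.9 CPM) had overlapping groups and did not pass the threshold. The fold change of Kcnc2 was 0.24, and it turned to −0.04 without dorsal striatum replicate 2 and to −0.02 without accumbens replicate 2. Both markers of fast-spiking interneurons were lower in value in accumbens, and their part in the Kcnc1 result was not tested. Pvalb was at 8.41 and 2.95 CPM in dorsal striatum and 1.36 and 3.38 CPM in accumbens, and Pthlh at 3.99 and 3.98 against 0.991 and 3.13 CPM, with 0 of these 2 listed markers past the threshold. Their summed level was 12.4 and 6.93 CPM in dorsal striatum and 2.35 and 6.50 CPM in accumbens.

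To show the DNA just upstream of the genes with the clearest differences, the 250 bases before the transcription start are printed for Kcnh1 and Kcnc1, for Kcna6, which came next by p-value, and for Kcnk2, the lower gene with the smallest p-value. The sequences are those of RefSeq on GRCm38.p6, written 5′ to 3′ on the strand of the gene, with capitals for GC boxes (GGGCGG on either strand). The windows are chr1:192190527-192190776 (plus) for Kcnh1, chr7:46396218-46396467 (plus) for Kcnc1, chr6:126740675-126740924 (minus) for Kcna6 and chr1:189402274-189402523 (minus) for Kcnk2, where the outermost of 4 listed starts was taken.
Kcnh1: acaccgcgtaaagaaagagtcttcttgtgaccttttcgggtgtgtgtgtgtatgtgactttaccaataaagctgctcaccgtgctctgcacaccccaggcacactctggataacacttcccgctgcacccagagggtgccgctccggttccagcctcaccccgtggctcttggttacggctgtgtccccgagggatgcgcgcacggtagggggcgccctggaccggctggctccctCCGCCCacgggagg
Kcnc1: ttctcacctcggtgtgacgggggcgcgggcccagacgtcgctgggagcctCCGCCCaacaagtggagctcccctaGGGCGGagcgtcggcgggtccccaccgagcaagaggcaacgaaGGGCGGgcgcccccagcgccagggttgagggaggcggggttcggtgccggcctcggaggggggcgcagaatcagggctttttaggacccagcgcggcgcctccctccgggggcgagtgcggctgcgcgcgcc
Kcna6: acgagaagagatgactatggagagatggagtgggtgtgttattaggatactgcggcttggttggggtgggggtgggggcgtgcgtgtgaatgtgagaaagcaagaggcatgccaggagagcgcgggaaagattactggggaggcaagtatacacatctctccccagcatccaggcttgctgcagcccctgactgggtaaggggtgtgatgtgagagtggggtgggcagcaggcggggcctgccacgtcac
Kcnk2: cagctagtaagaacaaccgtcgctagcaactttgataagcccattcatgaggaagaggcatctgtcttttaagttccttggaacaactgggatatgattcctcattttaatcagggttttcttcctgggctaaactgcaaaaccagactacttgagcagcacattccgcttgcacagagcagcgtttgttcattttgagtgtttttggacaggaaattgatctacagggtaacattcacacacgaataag
Kcnc1 had 3 GC boxes and 30 CpG pairs in its window, Kcnh1 had 1 and 17, Kcna6 had 0 and 8, and Kcnk2 had 0 and 5. The median window of the table had 6 CpG pairs. None of the 4 held TATAAA or TGACGTCA on either strand, motifs found in 12.4% and 1.55% of all 32851 windows. A GC box stood in 32.7% of all windows. By gene, at least 1 window held it in 38 of the 59 members with an entry (64.4%) and in 35.4% of the 27025 genes in the table. The members had to reach a minimum count in these libraries and the genes of the table did not, so these shares are not like for like. The matches describe letters only.

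The Kcna genes, which encode Kv1 channels, split by member. Kcna6 was at 74.0 and 75.6 CPM in dorsal striatum and at 118 and 122 CPM in accumbens (0.68, SE 0.14, edgeR adjusted p = 0.0646), just short of the threshold; Gm26673 overlaps its exons on the other strand. Kcna5 was at 12.2 and 13.5 against 24.0 and 32.9 CPM (1.14, SE 0.28, edgeR adjusted p = 0.0855), and Kcna3 at 6.09 and 6.85 against 13.5 and 10.9 CPM (0.91, SE 0.36). In each of these both accumbens libraries were above both dorsal striatum libraries. Kcna3 falls in decile 10 of GC content, where the median fold change over all tested genes was 0.31. With the offset for GC content its fold change was 0.62. Kcna4, whose channel inactivates fast, was the one Kcna gene lower in both accumbens libraries, at 146 and 146 against 113 and 98.6 CPM (−0.46, SE 0.14, edgeR adjusted p = 0.137). The abundant Kcna1 (386 and 341 against 509 and 407 CPM) and Kcna2 (405 and 337 against 361 and 388 CPM) differed less, and Kcna2 overlapped between regions.

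The make-up of the Kcna group differed accordingly, which does not depend on the scaling between libraries. Levels were divided by the length of the longest coding transcript before shares were taken. Kcna4 made up 16.8% and 18.4% of the group in dorsal striatum against 10.9% and 10.7% in accumbens. The share of Kcna6 was 6.99% and 7.83% against 9.35% and 10.8%, and that of Kcna5 2.35% and 2.86% against 3.87% and 5.95%. These groups of libraries did not overlap. Shares, like the ratios below, were singled out after their values were seen and carry no test. They were not corrected for GC content. Kcna4 falls in decile 3 of GC content, where the median fold change over all tested genes was −0.09. Kcna6 and Kcna5 fall in deciles 7 and 8, with medians of 0.05 and 0.14. With the offset for GC content the fold change was −0.36 for Kcna4 and 1.05 for Kcna5.

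Kcnab genes encode the cytoplasmic beta subunits that bind Kv1 channels, of which the product of Kcnab1 speeds inactivation. Kcnab1 was at 225 and 233 CPM in dorsal striatum and at 161 and 158 CPM in accumbens, with replicates close together (−0.53, SE 0.13, edgeR adjusted p = 0.0831). Its other 2 group members went the other way in value, Kcnab2 at 108 and 129 against 142 and 147 CPM (0.28, SE 0.15) and Kcnab3 at 12.8 and 13.7 against 20.4 and 24.0 CPM (0.74, SE 0.27), none past the threshold. Kcnab1 took 68.0% and 65.2% of the length-scaled Kcnab sum in dorsal striatum against 52.8% and 50.9% in accumbens. Kcnab1, Kcnab3 and Kcnab2 fall in deciles 3, 8 and 9 of GC content. The median fold changes over all tested genes there were −0.09, 0.14 and 0.21. With the offset for GC content the fold change of Kcnab1 was −0.42. Kcnab1 did pass with library size alone (edgeR adjusted p = 0.0432) and with DESeq2 (adjusted p = 0.00921), and its adjusted p ranged from 0.00921 to 0.489 over the alternatives. Some Kcnab1 exons overlap those of A330015K06Rik and some Kcnab3 exons those of Kcnab3os on the other strand. The files do not say whether the counting used strand, so such reads cannot be told apart. Some Kcnab2 exons overlap those of Gm16334 on the same strand, where strand would not separate the reads.

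**Figure D3:**
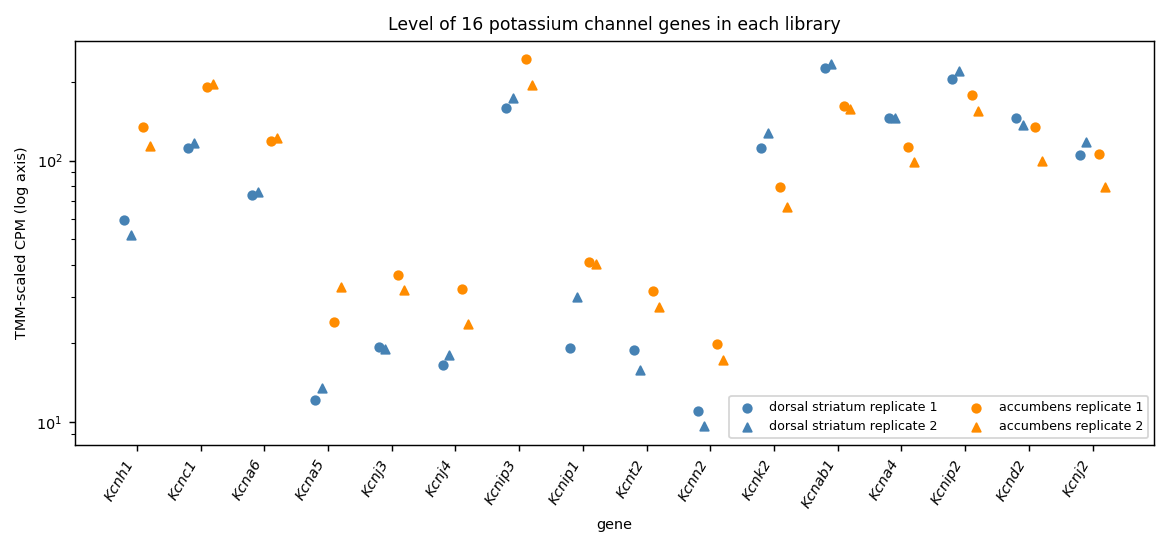
TMM-scaled CPM (vertical log axis) of 16 genes in the dorsal striatum (blue) and accumbens (orange) libraries, with circles for replicate 1 and triangles for replicate 2. Kcnh1 and Kcnc1 on the left have accumbens points above all dorsal striatum points, Kcnk2 and Kcnab1 have them below, and Kcnj2 on the right overlaps between 79.0 and 118 CPM.

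Kv4 channels and their KChIP partners make up the A-type current. Kcnd2, the gene of Kv4.2, was at 145 and 137 CPM in dorsal striatum and at 134 and 99.4 CPM in accumbens (−0.27, SE 0.17). Kcnd3, the gene of Kv4.3, was at 95.0 and 87.3 against 93.8 and 117 CPM (0.21, SE 0.17), and the low Kcnd1 at 9.56 and 8.45 against 15.5 and 8.25 CPM. None of these 3 genes passed, and Kcnd3 and Kcnd1 overlapped between regions. Kcnd3 shares exon sequence with the opposite-strand gene Kcnd3os, which had at most 13 counts in a library.

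Among the 4 Kcnip genes none passed the threshold, and each had groups that did not overlap, where 25.6% of all tested genes were apart and higher and 25.6% apart and lower. Kcnip2, the gene of KChIP2, was the lower one, at 204 and 220 against 179 and 154 CPM (−0.35, SE 0.14, edgeR adjusted p = 0.221). Kcnip3, whose product KChIP3 also acts as the transcription factor DREAM, was at 158 and 173 against 244 and 195 CPM (0.41, SE 0.15), and Kcnip1 at 19.1 and 30.04 against 40.9 and 40.1 CPM (0.72, SE 0.26). Kcnip4 differed least, at 43.9 and 47.0 against 47.8 and 55.1 CPM (0.18, SE 0.18). In dorsal striatum there were 0.774 and 0.784 counts of Kcnip3 per count of Kcnip2, and in accumbens 1.37 and 1.27. By length-scaled share Kcnip2 led the group in dorsal striatum (50.2% and 49.0%, Kcnip3 34.1% and 33.7%), and Kcnip3 led it in accumbens (44.3% and 40.5%, Kcnip2 37.0% and 36.5%).

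**Figure D4:**
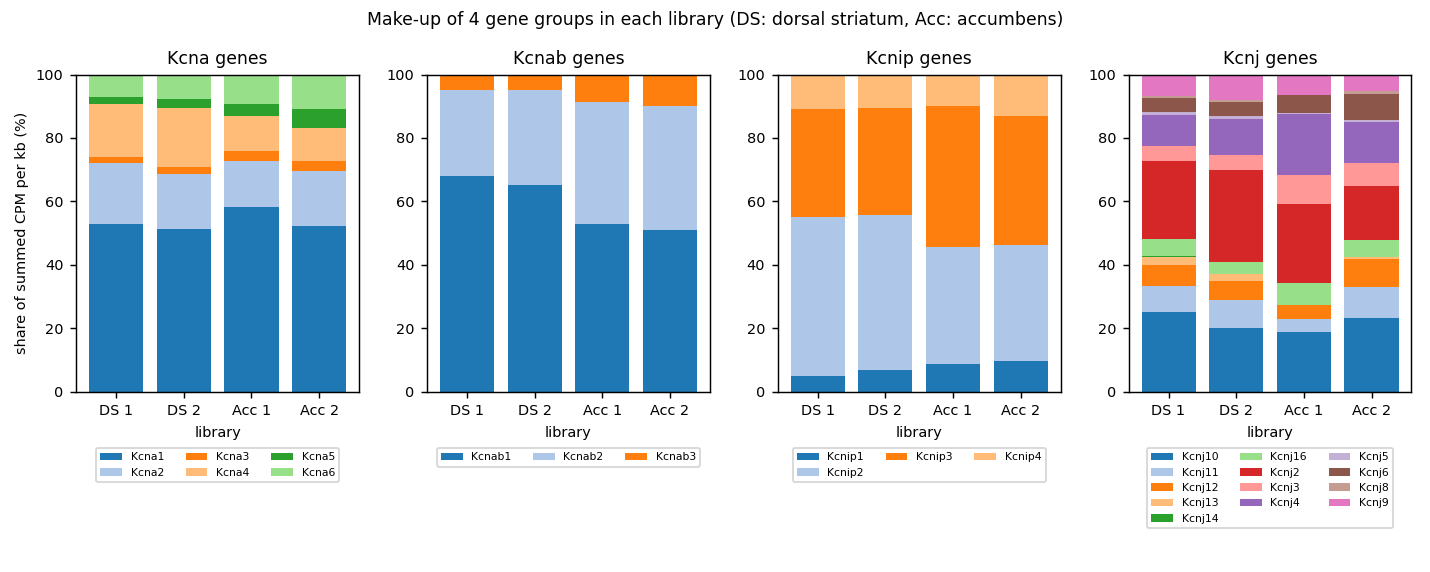
Share of each gene (stacked bars, in percent) in the summed CPM per kb of the Kcna, Kcnab, Kcnip and Kcnj genes, 1 bar per library. The Kcnab1 segment is 65.2% to 68.0% in dorsal striatum and 50.9% to 52.8% in accumbens, and the Kcnip2 segment 49.0% to 50.2% and 36.5% to 37.0%.

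The inward rectifier genes (Kcnj) showed no common direction, with 5 of 12 tested members above 0, 7 below and a median of −0.10 (Kcnj10, at −0.00, changed sign with the GC offset and DESeq2). None passed the threshold. Of the Kir2 genes, Kcnj2 was at 105 and 118 CPM in dorsal striatum and at 106 and 79.0 CPM in accumbens (−0.27, SE 0.18), with overlapping groups. Kcnj4, the gene of Kir2.3, was at 16.6 and 18.1 against 32.3 and 23.8 CPM (0.69, SE 0.26, edgeR adjusted p = 0.210), and Kcnj12 at 12.6 and 10.8 against 8.30 and 18.6 CPM. Per count of Kcnj2 there were 0.158 and 0.153 counts of Kcnj4 in dorsal striatum against 0.305 and 0.301 in accumbens, values that replicate closely although the levels of Kcnj2 and Kcnj4 in the accumbens libraries do not. Kcnj4 falls in decile 10 of GC content, where the median fold change over all tested genes was 0.31, and Kcnj2 in decile 1, at −0.04. The part of GC content in this ratio was not tested.

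The ratios between GIRK subunit genes also differed in value, while none of these genes passed the threshold. Kcnj3, the gene of GIRK1, was at 19.3 and 18.97 CPM in dorsal striatum and at 36.4 and 31.9 CPM in accumbens (0.83, SE 0.23, edgeR adjusted p = 0.112). Kcnj6, the gene of GIRK2, was at 12.6 and 11.7 against 15.98 and 25.1 CPM (0.76, SE 0.32). Kcnj9, the gene of GIRK3, lay lower in accumbens at 20.5 and 22.9 against 19.4 and 16.9 CPM (−0.26, SE 0.26), and Kcnj5, the gene of GIRK4, was low at 2.63 and 3.83 against 1.36 and 3 CPM. Counts of Kcnj3 per count of Kcnj9 were 0.944 and 0.829 in dorsal striatum against 1.87 and 1.89 in accumbens. Those of Kcnj6 per count of Kcnj9 were 0.615 and 0.512 against 0.822 and 1.49, with the accumbens libraries far apart. All of Kcnj3, Kcnj6 and Kcnj9 have exons that overlap a Gm-named gene on the other strand.

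Next were the glial and vascular Kcnj genes, together with Kcnj11. Kcnj10, the gene of the astrocyte channel Kir4.1, was at 106 and 80.8 against 79.7 and 107 CPM, with nearly equal means of 93.3 and 93.1 CPM. Its partner Kcnj16 was at 15.97 and 9.88 against 20.4 and 17.0 CPM (0.54, SE 0.33). The summed level of 6 other astrocyte markers was 2778 and 1907 CPM in dorsal striatum and 3156 and 2699 CPM in accumbens. Most of it came from Slc1a2 (2448 and 1700 against 2844 and 2401 CPM). Of the 6, 1 passed the threshold, Gja1, higher in accumbens (27.1 and 27.97 against 52.9 and 58.3 CPM). The list was split, with 4 of 6 higher in accumbens and a median log2 fold change of 0.18. Aqp4 (log2 fold change −0.32) and Gfap (−0.55) were lower in value. The part of astrocytes in the Kcnj16 value was not tested. Of the ATP-sensitive channel genes, Kcnj11 was at 20.5 and 21.2 against 9.91 and 26.5 CPM, and the mural cell gene Kcnj8 had 13 and 17 counts against 0 and 19. In both, the accumbens libraries straddled the dorsal striatum values, and without accumbens replicate 1 the fold changes turned from −0.20 to 0.34 for Kcnj11 and to 0.80 for Kcnj8. The summed level of 8 other endothelial and mural markers was 42.3 and 22.3 CPM in dorsal striatum and 60.2 and 24.6 CPM in accumbens, with 0 of 7 tested past the threshold and Cldn5 at 0 in replicate 2 of each region.

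Kcnj13, the gene of Kir7.1 and a marker of choroid plexus, had the largest difference in value, with 24 and 25 counts in the dorsal striatum libraries against 0 and 5 (−2.80, SE 1.20, edgeR adjusted p = 0.255). The fitted value rests on few counts and depends on how 0 is treated. Of the 4 listed markers of choroid plexus and ependyma, 2 were at or near 0, Ttr with 1, 1, 0 and 0 counts (dorsal striatum first) and Folr1 with 0, 1, 0 and 0. The ependymal gene Foxj1 was at 7.57 and 6.69 CPM in dorsal striatum and 1.49 and 2.38 CPM in accumbens, and Kl went the other way, at 3.26 and 4.30 against 10.3 and 10.3 CPM. The 4 markers summed to 10.9 and 11.2 against 11.8 and 12.6 CPM. The part of choroid plexus or ependymal cells in the result was not tested. Some Kcnj13 exons overlap those of Gigyf2 on the other strand. The files do not say whether the counting used strand, so how reads in the overlap were counted is not known.

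Among the leak channel genes, Kcnk2, which encodes the mechanically and lipid-gated TREK-1, had the lowest fold change among the 35 members at 30 CPM or more. It was at 111 and 128 CPM in dorsal striatum and at 79.2 and 66.1 CPM in accumbens, a 1.65-fold lower level in accumbens (−0.72, SE 0.17, edgeR adjusted p = 0.0790). Its exons overlap those of A430027H14Rik on the other strand. Kcnk2 passed with library size alone (edgeR adjusted p = 0.0458) and with DESeq2 (adjusted p = 0.00626), and the range over the alternatives was 0.00144 to 0.486. Kcnk3, the gene of the acid-sensitive TASK-1, was at 5.67 and 7.57 against 10.03 and 15.3 CPM (0.93, SE 0.39), and Kcnk1, the gene of TWIK-1, at 47.4 and 42.1 against 49.9 and 43.9 CPM. In the length-scaled Kcnk sum, Kcnk2 took 55.0% and 60.3% in dorsal striatum, where it led the group, and 43.5% and 39.6% in accumbens, where Kcnk1 took 43.9% and 42.0%. Kcnk6, the gene of TWIK-2, was at 1.47 and 2.23 against 7.31 and 1.00 CPM, and its value of 1.15 turned to −0.90 without accumbens replicate 1.

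Calcium- and sodium-activated channels were mixed. Kcnn genes encode the SK channels, opened by calcium after a spike. Kcnn3, the dominant one, was at 106 and 93.7 against 122 and 131 CPM (0.34, SE 0.15), and Kcnn2 at 11.03 and 9.64 against 19.8 and 17.3 CPM (0.84, SE 0.30, edgeR adjusted p = 0.180). Kcnma1, the gene of the BK channel, was at 142 and 121 against 180 and 121 CPM, with overlapping groups, and its subunit gene Kcnmb2 at 2.42 and 1.12 against 1.73 and 6 CPM. Kcnt1, the gene of the sodium-activated channel Slack, was at 165 and 137 against 147 and 112 CPM (−0.22, SE 0.18). Its relative Kcnt2, the gene of Slick, was at 18.9 and 15.8 against 31.8 and 27.6 CPM (0.78, SE 0.25, edgeR adjusted p = 0.146). Kcnt2 took 10.4% and 10.5% of the length-scaled pair in dorsal striatum against 18.1% and 20.0% in accumbens. Kcnu1, a sperm channel gene, was at 1.12 to 4.63 CPM.

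Of the M-current genes, Kcnq3 was at 107 and 115 against 96.0 and 91.5 CPM (−0.25, SE 0.14), and Kcnq5 at 137 and 145 against 200 and 151 CPM (0.31, SE 0.16). In each the groups did not overlap, Kcnq3 being lower and Kcnq5 higher in accumbens. Kcnb2, the gene of Kv2.2, a delayed rectifier, was at 30.1 and 28.4 against 32.0 and 34.5 CPM. Silent subunits, which form no channel alone and modify Kv2, came next. Kcng1 was at 12.7 and 11.2 against 6.94 and 10.001 CPM (−0.49, SE 0.36), Kcng3 at 38.9 and 33.5 against 39.5 and 54.8 CPM, Kcnf1 at 45.0 and 36.9 against 45.0 and 44.4 CPM, Kcns2 at 29.4 and 28.8 against 43.1 and 28.1 CPM, and Kcnv1 at 34.3 and 29.0 against 49.2 and 30.4 CPM. Kcnrg, which encodes a suppressor of channel assembly, was low in both regions at 4.62 and 4.54 against 3.22 and 2.13 CPM. None of these genes passed the threshold.

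Compared per length, as CPM per kb of the longest coding transcript, Kcna1 at 102, Kcnip2 at 79.1 and Kcnip3 at 70.5 were the highest members over the 4 libraries. Kcnip2 stood at 85.4 and 91.9 CPM per kb in dorsal striatum, level with Kcna1 at 95.9 and 84.6, and at 74.6 and 64.3 in accumbens, below Kcna1 at 126 and 101. Of the 10 highest by this measure, 6 were also among the 10 highest by CPM.

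Genes outside the Kcn names whose products bind or regulate these channels were read from a list of 31, of which 29 were tested. None passed the threshold in edgeR (1.28% of all genes did). An unadjusted p under 0.05 was reached by 2 higher and 3 lower genes of the list, against 10.9% and 8.27% of all tested genes. DESeq2 called 2 higher and 1 lower of 23, against 6.89% and 3.48% of all genes it tested. The list's median fold change was −0.05, with 14 genes above 0 and 15 below. Ank3, the axon initial segment scaffold that holds Kv7 channels, was at 1222 and 1161 against 1425 and 1314 CPM, the scaffold gene Dlg2 at 1088 and 1042 against 903 and 895 CPM, and the ubiquitin ligase gene Nedd4l at 783 and 748 against 886 and 840 CPM. Dpp10, a Kv4 auxiliary subunit gene picked out after its values were seen, was at 71.8 and 75.5 against 117 and 122 CPM (0.69, SE 0.15, edgeR adjusted p = 0.0638).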

How the data were processed

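Total RNA labelled as input from dorsal striatum (2 libraries) and accumbens (2 libraries) was sequenced, and groups and replicate numbers were taken from the sample titles. The authors deposited unnormalised read counts for each gene symbol in a separate file for every library. STAR 2.0.0e, HTSeq and the build mm10 are named in the submitters' processing notes. Neither those notes nor the files name the annotation or say whether strand was used. Rows that name no gene stayed out of library sizes and tests, and reads in no feature were 27.5% to 35.4% of each file.

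Counts were filtered with filterByExpr, scaled with TMM and tested with edgeR 4.0.16 (estimateDisp, glmQLFit, glmQLFTest) in R 4.3.3, region being the only term, two-sided, with Benjamini-Hochberg adjustment over all 14493 tested genes. Adjusted p-values are from this test unless DESeq2 1.42.0 is named. Standard errors were derived from the log2 fold change and its F statistic, as their ratio after taking the root of F. The procedure was tested on simulated data. Coordinates, transcript lengths and GC content came from GENCODE vM21 on GRCm38, whose chromosomes are those of mm10; a transcript was found for 88.4% of tested genes and 78 of the 81 members.

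The members and lists were chosen with earlier results of these data known. Named genes are those past the threshold, the highest of each subfamily, the 8 largest changes in each direction at a mean log2 CPM of at least 1, and the tested Kcnj, Kcnd and Kcnip genes (43 in all, leaving out those not reported here), plus the 3 highest partners; 15 more members, Kcnh8, Dpp10 and the gene pairs were added after their values were seen. Of the 11 fixed lists of cell type markers, 6 are set beside members. Alternatives covered scaling, filter, DESeq2, a replicate block and each library left out; the GC offset was added after seeing the data. Reads carry no molecular identifiers, so a floor of 3 counts covers counting error only.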

Additional observations from a re-analysis of the deposited data

How the results depend on the processing

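Of 560 alternative values for 57 named and tested genes, 475 kept direction and side of the threshold, 52 newly passed it, 5 lost it and 28 turned direction; the causes were not tested. The 5 losses concern Kcnh1 and Kcnc1. With DESeq2, 918 genes in all, 5 higher and 2 lower potassium channel genes, and 2 higher and 1 lower partner genes passed. With library size alone, 1 potassium channel gene was higher, 2 were lower and the members' median was 0.052. With the GC offset 1 was higher. With the replicate number as a block, 843 genes passed in all, of them 4 higher (Kcna5, Kcna6, Kcnc1, Kcnh1) and 2 lower (Kcnab1, Kcnk2) members, against 3.8% and 2.01% of all genes, and 2 higher partner genes. Nothing in the labels ties equal numbers to 1 mouse, and the correlation of the replicate differences across genes was 0.03, so the block rests on a number only. Leaving out 1 library gave 109 to 4464 genes in all, 0 to 22 higher and 0 to 7 lower members, 0 to 3 higher and 0 to 3 lower partner genes, and a members' median of 0.20 to 0.30. When an accumbens library is left out, the remaining one is assumed to vary like the dorsal striatum pair. By CPM in place of CPM per kb, 6 of the 10 highest members were kept.

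Direction turned with library size alone for Kcnf1 −0.043, Kcna2 −0.16, Kcnh7 −0.17 and Kcnk1 −0.10, with DESeq2 size factors for Kcnh7 −0.0033, with the DESeq2 test for Kcnj10 0.0013 and with the GC offset for Kcnj10 0.022 (log2). Over the fits that leave out 1 library, values ranged for Kcna2 from −0.12 to 0.13, Kcnc2 from −0.042 to 0.55, Kcnd1 from −0.12 to 0.78, Kcnf1 from −0.015 to 0.26, Kcnh5 from −0.19 to 0.76, Kcnh7 from −0.12 to 0.098; for Kcnj10 from −0.23 to 0.19, Kcnj11 from −1.08 to 0.34, Kcnj12 from −0.49 to 0.67, Kcnj8 from −6.79 to 0.80, Kcnk1 from −0.028 to 0.16, Kcnk6 from −0.90 to 1.95; for Kcnma1 from −0.12 to 0.45, Kcnmb2 from −0.00093 to 1.79, Kcns2 from −0.053 to 0.56, Kcnv1 from −0.058 to 0.64. The −6.79 of Kcnj8 is a fit against 0 counts. Under 30 CPM standard errors ran from 0.23 (Kcnj3) to 1.48 (Kcnh8), so what could be detected there differed from gene to gene.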

Other observations

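Counts were patchier in accumbens than in dorsal striatum, over all gene rows as well as among the members. In accumbens, 6 of the 81 genes had 0 counts in 1 library and at least 10 in its partner (Kcne3, Kcng4, Kcnh8, Kcnj8, Kcnk5 and Kcnmb1), which is 7.41% of the members beside 2.88% of the 17259 gene rows with at least 10 counts in all. In dorsal striatum this held for 1 member (Kcnk5), or 1.23% beside 0.185%. The median absolute log2 ratio between the replicates of a region was 0.19 in dorsal striatum and 0.42 in accumbens over the tested members, and 0.21 and 0.40 over all tested genes. Total counts of the accumbens libraries were 8606099 and 8478403, and those of the dorsal striatum libraries 8991788 and 11849134. No test was made of these differences.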
